A study of Mus musculus with 12 samples.

Results

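The CC chemokine ligands are small secreted proteins that draw monocytes, T cells and other leukocytes along a gradient by binding G protein-coupled CC chemokine receptors. In macrophages, lipopolysaccharide (LPS, a component of the outer membrane of Gram-negative bacteria) is sensed by Toll-like receptor 4 (TLR4), and the ligand genes are then transcribed through NF-kB, AP-1 and interferon regulatory factors. The 10 genes described here are Ccl2, Ccl7 and Ccl12 (monocyte chemoattractant proteins, ligands of CCR2), Ccl3, Ccl4 and Ccl5 (macrophage inflammatory proteins and RANTES), Ccl6 and Ccl9 (ligands of CCR1 found in rodents), and Ccl17 and Ccl22 (ligands of CCR4). They were chosen by gene name as members of the family, with earlier results of these data known. Of 18719 genes in the 2 count tables, 16699 stood in both, and so did 8 of the 10 ligands. Ccl17 and Ccl22 were listed in the LPS table only, so they have no unstimulated value and no test of the LPS response. The tables list no gene that falls below 4 counts in more than 1 of its 6 libraries.

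RNA was sequenced from J774A.1, a mouse macrophage line, in 4 groups of 3 libraries: wild-type (WT) or lacking ACAT1, an enzyme of ketone body and isoleucine metabolism in mitochondria (ACAT1 KO), each untreated or given LPS at 100 ng/ml for 2 h. The KO lines had received Cas9 with a guide against the fourth exon of Acat1 and the WT lines the same Cas9 vector without a guide. Cells of both genotypes were sorted and grown out as clonal populations, and each genotype is represented by 3 lines. A number was taken to mark the same line without and with LPS, which the sample names do not state. The p-values measure the spread between the lines within a group. For LPS and the interaction the main fit has no term for the line, so it does not pair the 2 libraries of a line. The line enters only where it is named as a block.

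Libraries held 56948593 to 127263834 counts without LPS and 96704955 to 167280149 with it. Acat1 itself, in CPM (counts scaled to library size), lay at 80.8 to 108 in unstimulated WT and 25.5 to 28.9 in unstimulated KO libraries, and at 65.0 to 95.4 and 18.5 to 19.9 after LPS. All 10 macrophage markers were listed, summing to between 9588 and 12219 CPM per library. Without LPS the sum was 9588 to 10608 CPM in WT and 10701 to 12219 CPM in KO libraries, and after LPS the genotypes overlapped. By edgeR, 2 of the 10 were called lower in KO cells without LPS, Fcgr1 and Adgre1. After LPS 1 was lower, Fcgr1, and 3 were higher, Cd14, Itgam and Spi1. Of all genes tested, 1.91% were called by genotype without LPS and 15.1% after it. Of the T cell markers only Cd4, at up to 0.198 CPM, was listed. Of the B cell markers only Cd79a, at up to 0.938 CPM, was listed, and no NK cell, mast cell or epithelial marker was. Neutrophil markers summed to at most 5.14 CPM. The sum of the dendritic cell list was higher in KO libraries, mostly through Cd209a, and its other markers tested did not share this. Zbtb46 and Xcr1 had log2 fold changes of KO over WT of 0.28 and -0.27 without LPS. After LPS they were at -0.31 and -0.16, and neither was called by edgeR in either state. The list summed to 4.75 to 13.4 CPM in unstimulated WT and 15.5 to 22.9 CPM in unstimulated KO libraries. After LPS the sums were 4.35 to 11.2 CPM in WT and 11.3 to 17.7 CPM in KO libraries. By edgeR, Cd209a differed by genotype with adjusted p of 0.218 without LPS and 0.0635 after it. The part of this list in the results below was not tested. The fibroblast list summed to 5.63 to 6.61 CPM in WT and 11.5 to 13.2 CPM in KO libraries after LPS, nearly all of it Pdgfra, with Col1a1 and Dcn at or under 0.162 CPM. In 3 unstimulated libraries (WT lines 1 and 2, KO line 2) between 0.0393% and 0.0592% of counts fell on 126 noncoding opposite-strand genes. The other 9 libraries held at most 0.0154%. These genes have a share of 0.5 or more of their exon bases opposite annotated exons of coding genes. Unstimulated values are therefore also given within these 2 sets of libraries.

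Without LPS, Ccl3, Ccl2, Ccl4 and Ccl9 were the most abundant ligands per length of transcript. In unstimulated WT libraries their mean levels, in CPM per kilobase of annotated exon, were 152 ± 47.1 for Ccl3, 134 ± 33.8 for Ccl2, 123 ± 34.3 for Ccl4 and 120 ± 19.2 for Ccl9 (SD, n = 3). Neighbours among these 4 overlapped in their values and could not be ranked. Ccl7, at 24.0 ± 7.58 CPM per kilobase, and Ccl12, at 19.2 ± 4.90, overlapped with each other and stood below them. Ccl6, at 4.50 ± 1.51, and Ccl5, at 1.40 ± 0.213 CPM per kilobase, were the lowest and were separate from each other and from the rest. The order was the same in unstimulated KO libraries, from Ccl3 at 246 ± 70.5 down to Ccl5 at 1.12 ± 0.188 CPM per kilobase.

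After LPS the order changed, with Ccl4 and Ccl3 above all other ligands. In WT libraries Ccl4 reached 2616 ± 546 and Ccl3 2241 ± 481 CPM per kilobase, values that overlapped, and both were separate from Ccl2 at 964 ± 172. Ccl5 moved from the last place to the fourth, at 711 ± 104 CPM per kilobase, overlapping with Ccl2 in WT libraries. Ccl9 (291 ± 31.4) and Ccl7 (245 ± 45.3) overlapped with each other, and Ccl12 (100.1 ± 16.1) was separate from its neighbours. Ccl22 (15.7 ± 3.43), Ccl17 (5.41 ± 1.18) and Ccl6 (4.01 ± 0.984) were the lowest in WT libraries. In KO libraries Ccl4 (4131 ± 445), Ccl3 (3677 ± 305), Ccl2 (1436 ± 107) and Ccl5 (827 ± 50.2 CPM per kilobase) led in the same order, and Ccl2 and Ccl5 no longer overlapped.

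**Figure D1:**
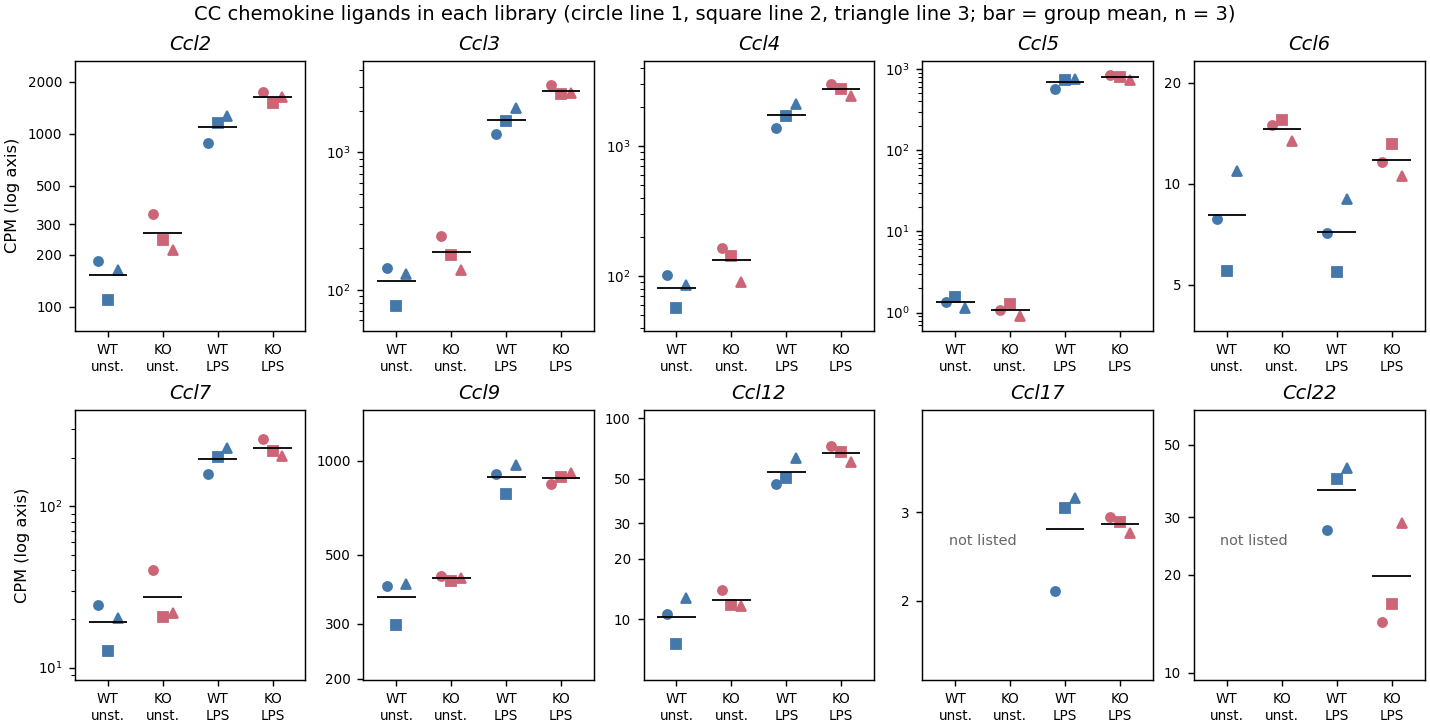
Level of each CC chemokine ligand in CPM (log axis) in the 12 libraries, with 1 point per library, the symbol marking the line and the bar the mean of 3. Ccl5 shows the widest step with LPS, from 0.900 to 1.54 CPM up to 568 to 835 CPM, Ccl6 shows no such step, and Ccl17 and Ccl22 are listed after LPS only.

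Of the 8 ligands listed in both states, 7 rose after 2 h of LPS in WT and the same 7 in KO cells, and Ccl6 was the exception. In both genotypes the LPS libraries of these 7 lay above every unstimulated library, which held for 31.4% of all genes tested in WT and 33.2% in KO cells. By edgeR's quasi-likelihood test, 29.3% of the 16535 genes tested were called higher with LPS in WT cells and 29.5% in KO cells. The median log2 fold change of the 8 ligands was 3.10 in WT and 2.84 in KO cells, beside -0.02 and -0.03 over all genes tested. With upper-quartile scaling the median over all genes moved to -0.23 in WT and -0.17 in KO cells and the share called higher to 21.9% and 23.7%, and the 7 ligands stayed called. These are bulk values, in which fewer cells expressing a gene and less RNA per cell cannot be told apart.

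Ccl5 (RANTES, which draws T cells and monocytes) had the largest response of the 8. It held 96, 101 and 140 counts in the unstimulated WT libraries, or 1.36, 1.54 and 1.13 CPM, and 568, 726 and 754 CPM after LPS. In KO lines 1 to 3 it went from 1.06, 1.26 and 0.900 CPM to 835, 805 and 741 CPM. All 6 LPS libraries stood far above all 6 unstimulated ones. The log2 fold change was 9.01 ± 0.18 (SE) in WT and 9.54 ± 0.18 in KO cells, with adjusted p of 2.7e-11 and 1.6e-11. By line, the fold was 419, 471 and 666 in WT and 785, 638 and 823 in KO cells, so that only WT line 3 reached the KO range.

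Ccl4 and Ccl3 (MIP-1 beta and MIP-1 alpha), which lie side by side, moved as a pair. Ccl4 rose with a log2 fold change of 4.40 ± 0.28 in WT and 4.36 ± 0.27 in KO cells (adjusted p 7.8e-08 and 6.9e-08), and Ccl3 with 3.88 ± 0.28 and 3.90 ± 0.28 (2.3e-07 and 1.9e-07). The per-length ratio of Ccl3 to Ccl4 lay between 1.07 and 1.32 in the 6 unstimulated libraries and between 0.830 and 0.965 in the 6 LPS libraries. Per length, Ccl4 thus overtook Ccl3 in every LPS library, in both genotypes. In CPM, Ccl3 stayed above Ccl4 after LPS in KO line 1 (3084 against 3005) and KO line 3 (2710 against 2420).

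The monocyte chemoattractants rose less. Ccl7 had a log2 fold change of 3.35 ± 0.30 in WT and 3.05 ± 0.29 in KO cells (adjusted p 1.4e-06 and 2.3e-06). Ccl2 had 2.85 ± 0.22 and 2.62 ± 0.22 (5.0e-07 and 8.1e-07), and Ccl12 2.38 ± 0.18 and 2.43 ± 0.18 (3.2e-07 and 2.2e-07). The ratio of Ccl2 to Ccl7 per length went from 5.24 to 6.08 in unstimulated WT libraries to 3.87 to 4.0 after LPS, and from 6.04 to 8.24 to 4.71 to 5.64 in KO libraries, the larger rise of Ccl7 seen within each genotype.

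Ccl9 and Ccl6, neighbours on the same strand, parted. Ccl9 rose 2.43-fold in WT and 2.10-fold in KO cells, with log2 fold changes of 1.28 ± 0.11 and 1.07 ± 0.11 (adjusted p 1.2e-06 and 4.7e-06). Ccl6 had log2 fold changes of -0.17 ± 0.22 in WT and -0.31 ± 0.22 in KO cells (adjusted p 0.551 and 0.243). By line, its LPS level was 0.911, 0.995 and 0.824 of the unstimulated level in WT and 0.775, 0.846 and 0.790 in KO cells, below 1 in all 6 lines. With the line as a block, Ccl6 passed the test in KO cells as lower with LPS (log2 -0.32 ± 0.07, adjusted p 0.0039), where 33.4% of all genes tested were called lower, and not in WT cells (-0.15 ± 0.07, adjusted p 0.114). In the fit of the 6 KO libraries alone its adjusted p was 0.0245.

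**Figure D2:**
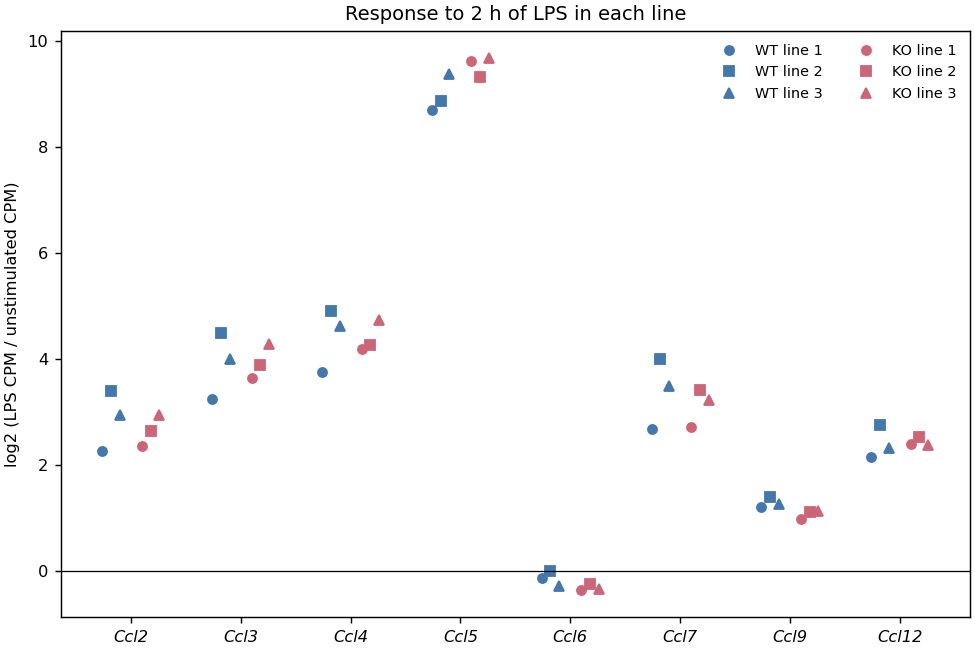
Log2 ratio of the LPS to the unstimulated CPM of the same line for the 8 ligands listed in both states, WT in blue and KO in red, with 1 point per line. Ccl5 lies between 8.71 and 9.69 and Ccl6 between -0.37 and -0.01, and WT line 1 has the lowest ratio of the WT lines for every ligand except Ccl6.

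The lines differed in how far they moved from a different start. Unstimulated WT line 2 was the lowest of the WT lines for 7 of the 8 ligands, all but Ccl5, and its response was the largest of the WT lines for Ccl2, Ccl3, Ccl4, Ccl7, Ccl9 and Ccl12. Ccl3 increased 22.6-fold in that line, from 75.5 to 1706 CPM, against 9.42-fold in WT line 1, which started from 144 CPM. Each fold is taken over the line's own unstimulated value, so a lower start by itself gives a larger fold. The unstimulated libraries of both these lines were among those with more opposite-strand counts. After LPS, WT line 3 was the highest WT library for all 10 ligands, and WT line 1 the lowest for 8, all but Ccl6 and Ccl9. Among KO libraries, line 1 was the highest for 6 of 8 ligands without LPS and for 7 of 10 after it. After removal of the 4 group means, log2 levels over the 12 libraries went together most closely for Ccl2 and Ccl3 (Pearson r = 0.98), Ccl2 and Ccl7 (0.95) and Ccl3 and Ccl4 (0.95), and not for Ccl5 with Ccl2 (0.10) or Ccl7 (-0.01). These values describe 12 libraries from 6 lines, each line giving 1 library per state.

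The genotype comparison asked whether loss of ACAT1 changed ligand transcripts in each state. Without LPS, no ligand passed edgeR's adjusted threshold, which 1.91% of 16440 genes did. Ccl2, Ccl3, Ccl4 and Ccl6 had unadjusted p under 0.05 with KO higher, as had 9.73% of all genes. The KO libraries lay above all WT libraries for 3 of 8 ligands, Ccl2, Ccl6 and Ccl9, against 12.3% of all genes. The median log2 fold change of the 8 was 0.61, against 0.00 over all genes tested, and 7 of 8 were positive. DESeq2 called 2 ligands, Ccl2 and Ccl6, where it called 1721 of all 16440 genes. The single fit of all 12 libraries called the same 2, among 1353 of 16535 genes. No ligand was called by limma-voom, which called 287 of 16440 genes. With 3 libraries against 3, an exact two-sided permutation test cannot give a p under 0.1, the value of every ligand whose groups did not overlap.

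Unstimulated Ccl6 was at 7.82, 5.49 and 10.9 CPM in WT lines 1 to 3 and at 14.9, 15.5 and 13.4 CPM in KO lines 1 to 3, so each KO library exceeded each WT library. Its log2 fold change was 0.86 ± 0.24 (adjusted p 0.117), and the adjusted p was 0.0363 without WT line 3, the highest of the WT libraries. Ccl2 was at 183, 109 and 164 CPM in WT and at 344, 241 and 212 CPM in KO libraries, a log2 fold change of 0.81 ± 0.24 (adjusted p 0.135). The groups did not overlap, and KO line 1 stood above the other KO lines.

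Ccl4 (0.71 ± 0.27, adjusted p 0.213) and Ccl3 (0.70 ± 0.28, adjusted p 0.241) had log2 fold changes of like size, with overlapping groups. Ccl7 was at 0.53 ± 0.32, Ccl12 at 0.28 ± 0.19, Ccl9 at 0.21 ± 0.12 and Ccl5 at -0.31 ± 0.21, with adjusted p between 0.396 and 0.484. Within the 3 libraries with more opposite-strand counts (2 WT, 1 KO) and within the other 3 unstimulated ones (1 WT, 2 KO), the mean log2 difference of KO from WT was 1.24 and 0.37 for Ccl6, 0.77 and 0.72 for Ccl2, 0.91 and 0.52 for Ccl4 and 0.79 and 0.50 for Ccl3. It was positive in both sets for these 4, and its size depended on the set most for Ccl6.

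After LPS, 4 of the 10 ligands were higher in KO cells by the adjusted test: Ccl3, Ccl2, Ccl4 and Ccl6. None was called lower. Of all 16483 genes tested, 15.1% were called, and 5.93% were called higher. The KO libraries lay above every WT library for the same 4 ligands, against 15.8% of all genes. The median log2 fold change of the 10 was 0.29, beside -0.00 over all genes, and 9 were positive. The calls depended on single lines: the number of ligands called was 0 without WT line 2, KO line 1 or KO line 2, with adjusted p of the 4 between 0.0505 and 0.104, and 0 in the single fit of all 12 libraries, with adjusted p of 0.0606 to 0.0956. With each of the 6 libraries left out in turn, Ccl3 and Ccl4 kept their call in 3 fits, Ccl2 in 2 and Ccl6 in 1. Their log2 fold changes stayed between 0.46 and 0.93 with any 1 library left out.

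Ccl3 was at 1353, 1706 and 2090 CPM in WT lines 1 to 3 and at 3084, 2655 and 2710 CPM in KO lines 1 to 3 after LPS. The log2 fold change was 0.73 ± 0.15, or 1.66-fold (adjusted p 0.0179). Ccl4 was at 1373, 1714 and 2093 CPM in WT and 3005, 2755 and 2420 CPM in KO libraries, a log2 fold change of 0.68 ± 0.15, or 1.60-fold (adjusted p 0.0237). In both genes the lowest KO library stood above the highest WT library, WT line 3.

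Ccl2 (MCP-1, the main CCR2 ligand that recruits monocytes) was at 881, 1152 and 1260 CPM in WT and 1754, 1511 and 1638 CPM in KO libraries after LPS. It rose 1.51-fold with the knockout, a log2 fold change of 0.60 ± 0.13 (adjusted p 0.0225). Its cluster neighbours Ccl7 and Ccl12, which share CCR2, had 0.24 ± 0.14 and 0.35 ± 0.12 (adjusted p 0.294 and 0.0857) and overlapping groups. DESeq2 put Ccl12 past the threshold (adjusted p 0.0299), as did leaving out WT line 3 (0.0174). Per length, Ccl2 exceeded Ccl7 by 3.87 to 4.0 times in WT and by 4.71 to 5.64 times in KO libraries after LPS, ranges that did not overlap.

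Ccl6 was at 7.13, 5.46 and 8.99 CPM in WT and at 11.6, 13.1 and 10.6 CPM in KO libraries after LPS, a log2 fold change of 0.72 ± 0.17, or 1.65-fold (adjusted p 0.0296, and up to 0.104 with a library left out). It was thus the only one of the 4 that LPS had not raised. Ccl9, beside it, was at 910, 781 and 968 CPM in WT and 842, 885 and 915 CPM in KO libraries, with a log2 fold change of 0.01 ± 0.09 (adjusted p 0.945). The ratio of Ccl9 to Ccl6 per length lay between 63.5 and 84.3 in WT and 39.8 and 51.1 in KO libraries after LPS, and between 21.8 and 32.0 and 15.7 and 18.6 without it. The 2 genotypes did not overlap in either state.

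Ccl5 after LPS differed by 0.24 ± 0.11 on the log2 scale (adjusted p 0.174), with WT line 3 inside the KO range. Ccl22 (macrophage-derived chemokine) was the only ligand with a value well below 0 after LPS. It was at 27.5, 39.4 and 42.6 CPM in WT and at 14.3, 16.2 and 28.8 CPM in KO libraries, so that KO line 3 stood above WT line 1. The log2 fold change was -0.86 ± 0.27 (adjusted p 0.0686), and it passed the test without KO line 3 (-1.23, adjusted p 0.0188) or without WT line 1 (-1.03, adjusted p 0.0406).

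Ccl17 (TARC), the other CCR4 ligand, was at 2.09, 3.06 and 3.20 CPM in WT and at 2.94, 2.87 and 2.72 CPM in KO libraries, from 178 to 484 counts each. Its log2 fold change was 0.05 ± 0.17 (adjusted p 0.879). The per-length ratio of Ccl22 to Ccl17 was 2.85 to 2.95 in the 3 WT libraries and 1.07 to 2.34 in the 3 KO libraries. The pair thus did not keep 1 ratio across genotypes.

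**Figure D3:**
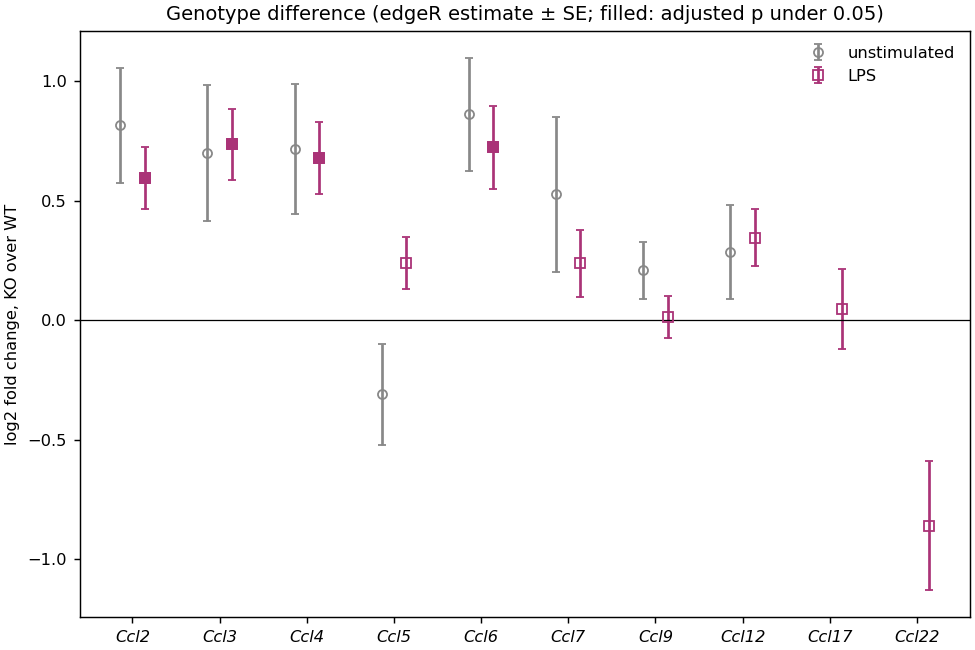
Log2 fold change of KO over WT for each ligand, with the standard error from edgeR's quasi-likelihood fit, unstimulated as circles and LPS as squares, filled where the adjusted p is under 0.05. The filled points are Ccl2, Ccl3, Ccl4 and Ccl6 after LPS, between 0.60 and 0.73, and Ccl22 after LPS lies lowest at -0.86.

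The LPS response itself was compared between genotypes by the interaction of genotype and LPS. No ligand passed, and 0.187% of 16535 genes did, by edgeR, and DESeq2 and limma-voom called no ligand either. Ccl5 alone had an unadjusted p under 0.05, with a positive sign, as had 3.28% of all genes. Its response was 0.53 ± 0.21 larger in KO cells on the log2 scale by edgeR (adjusted p 0.457, and 0.237 with the line as a block). The other 7 ligands had interactions between -0.30 ± 0.38 (Ccl7) and 0.05 ± 0.24 (Ccl12). With the line as a block, 288 genes were called in place of 31, and still no ligand. The standard errors of the other 7 ligands then lay between 0.078 (Ccl9) and 0.31 (Ccl7), in place of 0.16 to 0.38.

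Summed over the ligands listed, their transcripts made up 869, 567 and 827 CPM in unstimulated WT lines 1 to 3 and 1251, 1026 and 910 CPM in KO lines 1 to 3. After LPS the sums were 5327, 6380 and 7512 CPM in WT and 9885, 8930 and 8732 CPM in KO libraries. The KO sums lay above the WT sums in both states. Ccl2, Ccl3 and Ccl4 together held 42.7% to 49.3% of the sum in unstimulated WT, 48.5% to 60.2% in unstimulated KO, 67.7% to 72.5% in WT with LPS and 77.5% to 79.3% in KO with LPS.

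**Figure D4:**
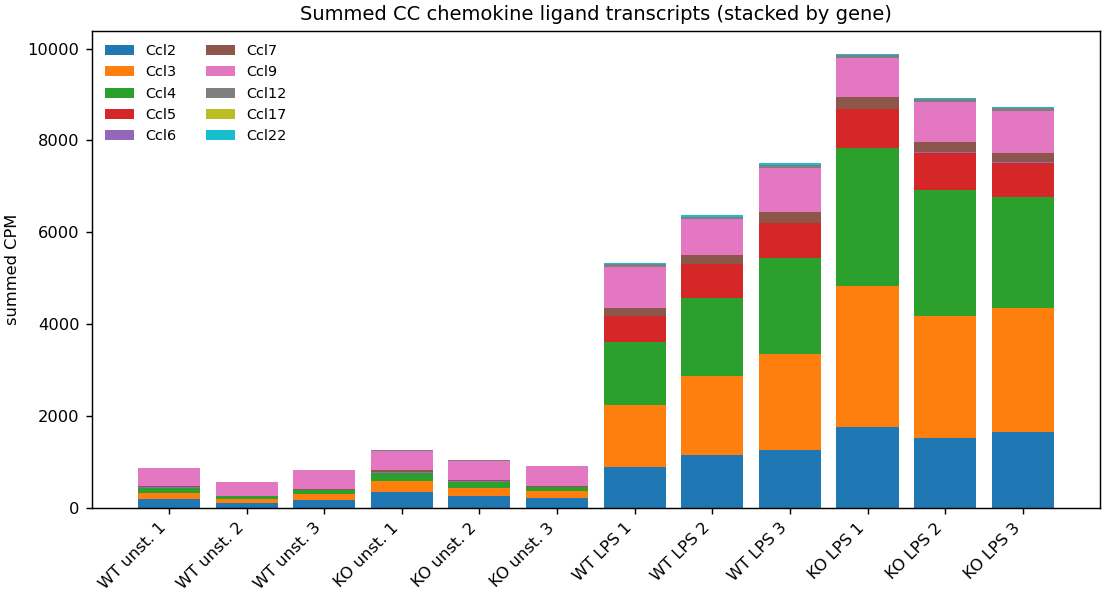
Summed CPM of the CC chemokine ligands in each library, stacked by gene, with the axis starting at 0. The sum lies between 567 and 1251 CPM without LPS and between 5327 and 9885 CPM with it, and Ccl3, Ccl4 and Ccl2 make up most of it after LPS.

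In the mouse genome (GRCm38) the 8 ligands listed in both states lie on chromosome 11 in 2 blocks. Ccl2, Ccl7 and Ccl12 span 82035571 to 82103400, and Ccl5, Ccl9, Ccl6, Ccl3 and Ccl4 span 83525778 to 83664683. Ccl22 and Ccl17 lie on chromosome 8 at 94745590 to 94812036, with Cx3cl1 between them. On the plus strand of chromosome 11 are Ccl2 (ENSMUSG00000035385, 82035571 to 82037453), Ccl7 (ENSMUSG00000035373, 82045712 to 82047525), Ccl12 (ENSMUSG00000035352, 82101845 to 82103400) and Ccl4 (ENSMUSG00000018930, 83662584 to 83664683). On its minus strand are Ccl5 (ENSMUSG00000035042, 83525778 to 83530518), Ccl9 (ENSMUSG00000019122, 83572919 to 83578636), Ccl6 (ENSMUSG00000018927, 83587882 to 83593087) and Ccl3 (ENSMUSG00000000982, 83647844 to 83649355). Ccl22 (ENSMUSG00000031779, 94745590 to 94751699) and Ccl17 (ENSMUSG00000031780, 94810453 to 94812036) lie on the plus strand of chromosome 8. No exon of these genes overlaps an exon of another annotated gene. The other 38 genes tested within 1 Mb of the Ccl5 to Ccl4 block had a median log2 fold change of KO over WT of 0.06 after LPS, from -0.69 to 0.69, and 3 of them were called. The 17 others around Ccl2 to Ccl12 had a median of 0.11 with 1 called, and the 38 others around Ccl22 to Ccl17 a median of -0.04 with 3 called. Of all genes tested by genotype after LPS, 15.1% were called. The windows around the 2 blocks on chromosome 11 overlap, so a gene can be counted in both. Cx3cl1 (fractalkine) was at 2.94, 2.14 and 1.67 CPM in WT and 1.24, 1.46 and 1.31 CPM in KO libraries after LPS, without overlap, with a log2 fold change of -0.72 ± 0.21 (adjusted p 0.0554).

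Promoter sequence from RefSeq (GRCm38.p6) was at hand for Ccl3, Ccl6, Ccl9, Ccl12, Ccl17 and Ccl22, and is shown because these 6 include the neighbours Ccl6 and Ccl9, which differ in their response to LPS, and the pair Ccl22 and Ccl17, whose ratio differs between the WT and KO libraries. Each line gives the 250 bases before the RefSeq start, 5′ to 3′ on the gene's own strand, and for Ccl22 the 156 bases before the annotated first exon. Coordinates are chr11:83649379-83649628 (minus strand) for Ccl3, chr11:83593088-83593337 (minus) for Ccl6, chr11:83578637-83578886 (minus) for Ccl9, chr11:82101595-82101844 (plus) for Ccl12, chr8:94810203-94810452 (plus) for Ccl17 and chr8:94745434-94745589 (plus) for Ccl22. Capitals mark matches, on either strand, to 5 motifs: the NF-kB consensus, the core of the interferon-stimulated response element, TGANTCA (AP-1 type), AGGAAGT (ETS type) and TATAAA (of the TATA box).
Ccl3: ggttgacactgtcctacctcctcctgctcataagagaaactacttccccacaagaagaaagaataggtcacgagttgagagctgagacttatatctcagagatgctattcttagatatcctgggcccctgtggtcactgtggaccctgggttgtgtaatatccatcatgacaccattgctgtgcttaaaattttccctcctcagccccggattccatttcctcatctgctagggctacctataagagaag
Ccl6: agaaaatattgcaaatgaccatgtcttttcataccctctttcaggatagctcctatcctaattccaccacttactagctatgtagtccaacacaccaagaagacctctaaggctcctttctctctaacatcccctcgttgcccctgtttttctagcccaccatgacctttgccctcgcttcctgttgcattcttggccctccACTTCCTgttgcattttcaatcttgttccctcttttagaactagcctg
Ccl9: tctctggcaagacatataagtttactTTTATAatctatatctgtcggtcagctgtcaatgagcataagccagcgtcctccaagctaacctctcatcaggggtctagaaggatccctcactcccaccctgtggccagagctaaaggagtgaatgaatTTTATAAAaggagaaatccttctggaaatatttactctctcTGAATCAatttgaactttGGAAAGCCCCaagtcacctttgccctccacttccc
Ccl12: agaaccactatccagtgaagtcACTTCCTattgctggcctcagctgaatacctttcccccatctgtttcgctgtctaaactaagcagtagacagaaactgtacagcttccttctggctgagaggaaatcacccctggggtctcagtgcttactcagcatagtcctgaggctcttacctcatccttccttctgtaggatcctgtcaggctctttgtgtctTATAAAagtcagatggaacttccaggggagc
Ccl17: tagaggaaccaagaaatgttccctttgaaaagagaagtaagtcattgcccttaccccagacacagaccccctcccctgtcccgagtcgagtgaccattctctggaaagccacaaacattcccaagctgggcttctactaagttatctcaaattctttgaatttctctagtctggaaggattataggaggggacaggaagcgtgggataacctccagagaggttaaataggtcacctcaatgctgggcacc
Ccl22: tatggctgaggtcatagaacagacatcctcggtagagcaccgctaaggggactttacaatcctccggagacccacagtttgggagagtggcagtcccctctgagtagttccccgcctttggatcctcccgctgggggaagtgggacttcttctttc

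Ccl9 held the NF-kB consensus 35 to 26 bases before its start, on the opposite strand, and TGANTCA at 53 to 47 bases before it. It held TATAAA at 224 to 219 bases and at 94 to 87, where matches on both strands overlap. Ccl12 held TATAAA at 31 to 26 bases before its start and AGGAAGT, read from the opposite strand, at 228 to 222. Ccl6 held only AGGAAGT, read from the opposite strand, at 48 to 42 bases before its start. In the 250 bases before the starts of Ccl3, Ccl17 and Ccl22 none of the 5 motifs matched. Of 32851 such windows in the RefSeq table, the NF-kB consensus was in 3.90%, the interferon element core in 2.98%, TGANTCA in 6.75%, AGGAAGT in 7.69% and TATAAA in 12.4%. The Ccl6 and Ccl9 windows shared a run of 13 identical bases, at 55 to 43 bases before the start of Ccl6 and 14 to 2 before that of Ccl9, and the other pairs of windows shared runs of at most 10. A match describes letters in this window and no binding was measured.

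Other genes of the family and its pathway were read from lists. Of the 11 other CC ligands, 3 were tested in both states and 5 after LPS, and none passed the adjusted test by genotype in either state. Ccl28, at or under 0.839 CPM in every library, fell with LPS, by 1.24 in WT and 1.76 in KO cells on the log2 scale. Ccl20, listed after LPS only, was at 5.74, 6.11 and 4.29 CPM in WT and 11.9, 6.58 and 6.39 CPM in KO libraries. Its groups did not overlap, and its log2 fold change was 0.64 ± 0.25 (adjusted p 0.120). Unstimulated Ccl25 was at -0.55 ± 0.15 on the same scale (adjusted p 0.108).

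Among CC chemokine receptors and scavengers, 4 of 7 tested rose with LPS in both genotypes, among them Ccrl2, Ccr3 and Ccr9. Of all genes, 29.3% were called higher in WT and 29.5% in KO cells. Ccr1 fell by 3.16 and 3.97 and Ccr2 by 2.08 and 2.03 on the log2 scale in WT and KO cells, while several ligands of both rose. Ccrl2, a receptor-like protein that binds chemerin, was at 467, 480 and 570 CPM in WT and 1019, 875 and 845 CPM in KO libraries after LPS, without overlap and higher by 0.87 ± 0.10 on the log2 scale (adjusted p 0.00315). After LPS, 2 were called higher in KO cells, against 5.93% of all genes. These were Ccrl2 and Ccr9, the latter at under 1 CPM in every library, as was Ccr3. Without LPS, none of the list was called by genotype.

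Of the 13 CXC and other chemokine ligands, 9 were tested after LPS, 1 was called higher in KO cells, Cxcl2 (0.90 ± 0.24, adjusted p 0.0392), and none lower, with a median of 0.36. Without LPS none of 4 was called. All 26 genes of TLR4 signalling were tested. With LPS, 21 rose and 4 fell in WT and 21 rose and 5 fell in KO cells. Of all 16535 genes tested, 4850 rose and 4638 fell in WT and 4871 rose and 5166 fell in KO cells. By genotype, 1 was lower without LPS, Tbk1, and after LPS 6 were higher, among them Cd14, Nfkb2 and Nfkbie, and 3 lower, among them Tbk1 (-0.41 ± 0.06) and Tirap (-0.44 ± 0.07), with a median of 0.04 over the list. Of 9 factors of cytokine mRNA decay, 2 were lower in KO cells after LPS, Zfp36l2 (-0.32 ± 0.05, adjusted p 0.00883) and Rc3h1 (-0.32 ± 0.08, adjusted p 0.0336). None of the 9 was called without LPS. Beside these lists, 977 of all 16483 genes were called higher in KO cells after LPS and 1504 lower. Without LPS 1.91% of all genes were called.

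For the IRF4 and STAT6 axis linked to Ccl17 and Ccl22, 4 of 7 genes were called by genotype after LPS, against 15.1% of all genes. Whether these genes bear on the 2 ligands was not tested. Stat6 was lower in KO cells (148 to 166 CPM against 204 to 235 in WT, -0.42 ± 0.07, adjusted p 0.0101), as were Il4ra and Csf2rb, and Csf2ra was higher. Irf4, at 3.59, 3.31 and 3.22 CPM in WT and 1.84, 1.61 and 3.07 CPM in KO libraries, was not called. For the interferon axis of Ccl5 and Ccl12, 2 of 9 genes were called without LPS, Irf8 higher and Stat2 lower (-1.15 ± 0.16, adjusted p 0.0344). After LPS 3 of 10 were called. The shares over all genes were 1.91% without LPS and 15.1% after it. Ifnb1, which encodes interferon beta, was higher in KO cells (24.6, 37.6 and 54.9 CPM in WT and 123, 93.4 and 63.1 CPM in KO libraries, 1.27 ± 0.31, adjusted p 0.0312), and Irf8 and Ifnar1 were lower.

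The genes whose log2 levels over the 12 libraries were most like those of a ligand were taken for each of the 8. For Ccl3, Ccl4 and Ccl7 the most alike was Tnf (Pearson r between 0.996 and 0.997), for Ccl2 Sgms1 (0.993), for Ccl5 Malt1 (0.999), for Ccl9 Abi1 (0.992) and for Ccl12 Clint1 (0.996). The libraries fall into an unstimulated and an LPS set, so these values mostly reflect that step. For Ccl6, which had no such step, the most alike were Tnnt1 (0.983) and Cpt1c (0.976). Every gene named here was picked for the largest r among all genes tested outside the members, so a high r is partly owed to the picking. Shared regulation was not tested.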

How the data were processed

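Deposited raw counts per gene, made by the authors with Trimmomatic 0.33, HISAT2 on GRCm38 and StringTie, were read from 1 table per state. Repeated entries (59 unstimulated, 57 LPS) were removed. The step that gave whole counts and its use of strand are not given in the sources used here. The authors' 12 columns of log2 values per library, also deposited, and their fold changes and p-values were not used. Members and gene lists were chosen with earlier results of these data known.

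Genes passing filterByExpr were scaled by TMM and tested with edgeR 4.0.16 (quasi-likelihood, two-sided, R 4.3.3) within each state for genotype and, for LPS and the interaction, in 1 model of 4 groups over genes in both tables. Adjusted p-values (Benjamini-Hochberg over all genes tested) under 0.05 were calls. Standard errors were taken from the fold change and its F statistic. CPM used 1 TMM scaling over 12 libraries, and levels per length the merged exons of GENCODE (17849 of 17874 LPS genes matched). Replicate libraries of a group differed beyond sampling noise (chi-square per degree of freedom 31.7 to 269), so none was counted once. Deviations of the same line without and with LPS correlated at 0.374 to 0.573 over 10814 genes, and the numbers were taken to pair those libraries. At most the 5 genes of a list with the smallest p in a comparison were named, and the 2 genes most like each member. Fits were tested on simulated counts. DESeq2 1.42.0, limma-voom 3.58.1, other scalings and filters, a block, other library sets, each library left out and, added after seeing the data, a term for the 3 opposite-strand libraries were the alternatives. Intervals and errors cover these lines only. The result for 1 listed gene is not reported here.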

Additional observations from a re-analysis of the deposited data

Results flagged for a closer look

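The genotype difference of 3 genes named beside the ligands differed between the states by the test of the interaction itself (edgeR). For Irf8 the interaction was -1.22 on the log2 scale (adjusted p 0.0195): KO libraries were higher without LPS (227 to 239 against 154 to 164 CPM) and lower after it (33.6 to 46.0 against 55.4 to 67.5 CPM), and the call was lost without WT line 2 in either state, unstimulated KO line 3 or KO line 2 with LPS (adjusted p 0.0512 to 0.0774). For the macrophage marker Adgre1 it was 0.83 (adjusted p 0.0423), lost with limma-voom and on leaving out any library except unstimulated WT line 1 (adjusted p 0.0507 to 0.110). For Pdgfra it was 1.22 (adjusted p 0.0383), lost with limma-voom (0.0539) and on leaving out any of 10 of the 12 libraries (0.0520 to 0.103). No CC ligand was flagged.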

How the results depend on the processing

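The 7 ligands raised by LPS stayed called in both genotypes under every alternative run. Ligands called by genotype without LPS (0) became 2 with DESeq2 and 2 in the single fit of 12 libraries, and 0 to 1 with a library left out. After LPS the 4 became 0 in the single fit of 12 libraries and 0 to 5 with a library left out. The cause was not tested. Genes called by genotype without LPS (314) became 475 with at least 10 counts in every library, 1721 with DESeq2, 1353 in the single fit, 151 with the replicate block, 664 with the opposite-strand term and 7 to 522 with a library left out. After LPS (2481) they ranged from 867 to 2245 with a library left out. Genes called for the interaction (31; 8 positive and 23 negative) became 333 with DESeq2, 11 with limma-voom, 288 with the line block, 69 with the opposite-strand term and 2 to 41 with a library left out, and 10 were positive and 13 negative with upper-quartile scaling. Signs turned only for values that were not called: after LPS, Ccl9 by genotype (-0.0091 in the single fit, -0.069 to 0.089 with a library left out) and Ccl17 (-0.12 to 0.17); Ccl6 with LPS in WT (-0.38 to 0.11); and the interactions of Ccl3 (-0.15 to 0.26), Ccl4 (0.010 with upper-quartile scaling, -0.26 to 0.15), Ccl6 (-0.43 to 0.068), Ccl7 (-0.48 to 0.073) and Ccl12 (-0.13 to 0.23).

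WT and KO lines could be matched only by their number. Deviations correlated at -0.0932 to 0.476 for the same number and at -0.564 to 0.294 for different numbers. Whether the number marks a shared batch was not tested. With that number as a replicate block, Ccl22 after LPS passed (-0.90, adjusted p 0.0146) and Ccl6 did not (0.75, adjusted p 0.0526). The line block changed no call of a ligand other than Ccl6 in KO cells. Depth was lowest for unstimulated Ccl5, at 96 to 147 counts.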
